A study of Mus musculus with 6 samples.

Results

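The transcripts of the tumor suppressor p53 (Trp53) and of the cell cycle inhibitor p21 (Cdkn1a) were examined in ID8 and KMF ovarian cancer cells. These are the 2 rows that carry these gene names among the 7320 genes of the deposited table. RNA came from 6 cultures of mouse cells of strain C57Bl6, each cultured in PromoCell XF medium as tumorspheres (clusters in suspension) over 5 days, with no drug added. ID8 is a line derived from transformed mouse ovarian epithelial cells. KMF, whose samples are titled as ID8-IP, descends from ID8 cells that had been passaged in mice. The 3 ID8 cultures were at passages 23, 24 and 35 (replicates 1, 2 and 3) and the 3 KMF cultures at passages 14, 17 and 22. Every KMF culture was at a lower passage than every ID8 culture, so an effect of the line and an effect of passage cannot be told apart. The labels call the samples of a line independent but each line is a single derivation, so p-values measure the spread between cultures of that derivation.

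p53 is a transcription factor that is held at a low level by the ubiquitin ligase Mdm2 and accumulates, mostly through slower degradation of the protein, after DNA damage and other stress. It then activates genes of cell cycle arrest, apoptosis, DNA repair and metabolism. Cdkn1a is the best known of them: p21 binds complexes of cyclins and cyclin-dependent kinases (CDKs) as well as the replication clamp PCNA and halts the cycle. Cdkn1a also responds to other transcription factors, and its protein is degraded by ubiquitin ligases. High-grade serous ovarian cancer nearly always has lost p53 function, whereas ID8 cells are known for keeping the wild type gene. Transcript levels do not report the amount or activity of either protein, which RNA sequencing does not measure.

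Trp53 (ENSMUSG00000059552) lies on chromosome 11, 69580359 to 69591873, on the plus strand of the mm10 assembly, and 4 of its 6 transcripts in GENCODE release M21 have 11 exons. No other annotated gene overlaps it, but Wrap53 starts 104 bases before it on the minus strand. Cdkn1a (ENSMUSG00000023067) lies on chromosome 17, 29090979 to 29100722, on the plus strand. An unclassified transcript of the minus strand (AC167363.2) overlaps the gene, and since the use of strand in counting is not stated, reads from it cannot be told apart from those of Cdkn1a. Cdkn1a has 2 start regions in RefSeq, at 29090979 and at 29093769, and the gene-level counts do not separate them. The promoters of both genes are shown because they carry the sequences through which p53 and other factors are known to act on these genes. The sequences are from RefSeq (GRCm38.p6), run 5′ to 3′ on the plus strand from 250 bases before the start to 29 bases after the start base, and have motif matches in capitals.
Trp53, chr11:69580109-69580388: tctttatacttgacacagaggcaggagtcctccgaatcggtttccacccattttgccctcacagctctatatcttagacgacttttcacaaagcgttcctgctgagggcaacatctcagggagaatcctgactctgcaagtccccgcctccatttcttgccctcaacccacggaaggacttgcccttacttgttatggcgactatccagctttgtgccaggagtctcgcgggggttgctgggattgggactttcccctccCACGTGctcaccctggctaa
Cdkn1a upstream start, chr17:29090729-29091008: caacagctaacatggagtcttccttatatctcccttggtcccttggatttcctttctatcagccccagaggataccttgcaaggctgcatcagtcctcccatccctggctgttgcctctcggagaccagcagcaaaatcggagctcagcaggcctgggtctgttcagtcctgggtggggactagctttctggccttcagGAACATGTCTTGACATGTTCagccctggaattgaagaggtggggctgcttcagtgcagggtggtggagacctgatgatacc
Cdkn1a downstream start, chr17:29093519-29093798: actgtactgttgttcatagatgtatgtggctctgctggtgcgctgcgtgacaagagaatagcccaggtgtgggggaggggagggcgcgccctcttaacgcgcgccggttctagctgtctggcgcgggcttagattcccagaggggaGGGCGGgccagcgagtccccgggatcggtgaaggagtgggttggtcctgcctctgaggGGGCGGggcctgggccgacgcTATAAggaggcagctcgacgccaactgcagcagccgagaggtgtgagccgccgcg
Motifs were searched in windows of 300 bases, which end 20 bases further on. They were CACGTG and GGGCGG on both strands, TATAA on the strand of the gene, and the p53 response element, taken as 2 decamers of its consensus at most 13 bases apart with at most 1 mismatch in all and none in the 4 core letters of a decamer, a pattern that reads the same on both strands. None of these motifs overlap each other. The Trp53 window held CACGTG, the E-box bound by Myc and related factors, just after the start, and 7.15% of 32851 mouse windows of this length hold it. The upstream Cdkn1a window held the p53 response element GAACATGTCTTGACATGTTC (chr17:29090928-29090947), with 1 mismatch and no gap between its decamers, 2822 bases before the downstream start. Such an element was found in 0.417% of all windows. The downstream Cdkn1a window held GGGCGG, the core of the box bound by Sp1, at 2 positions and TATAA at 1, and 35.7% and 17.5% of all windows hold these motifs. A match is a description of the sequence and not evidence that a factor was bound in these cells.

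Library sizes ranged from 23108407 to 33212313 fragments on genes. The deposited table lists only genes with an adjusted p-value under 0.05 in the authors' own comparison of these 6 libraries, 42.2% of an estimated 17359 genes tested, so both genes had been selected for a difference and a call here is not independent evidence of it. Among 6967 genes fitted with edgeR, 92.9% were called (adjusted p-value under 0.05), 45.4% as higher and 47.5% as lower in KMF. The FPKM values of the lines did not overlap for 96.5% of the listed genes, with KMF above ID8 for 46.3% and below ID8 for 50.2%. These shares are the background against which the calls below are read. Genes given below as not analysed are absent from this table of selected genes. Of 13 markers of ovarian surface epithelium 8 were listed, 1 higher and 7 lower in KMF. The listed epithelial markers summed to 228 to 344 FPKM in ID8 and 198 to 237 in KMF. Wt1, Msln and Gpm6a carried the KMF sum, whereas Cdh1 (E-cadherin) had 8.61 ± 2.94 FPKM in ID8 against 0.726 ± 0.222 in KMF (SD, n = 3). Krt7, Upk3b and Aldh1a2 were lower in KMF too. Within ID8 all 8 listed epithelial markers were lowest in replicate 3, the ID8 library with the lowest Trp53. Among them is Msln, the 1 marker called higher in KMF. Aldh1a2 had 28.0, 27.8 and 4.22 FPKM in ID8 replicates 1, 2 and 3 and at most 0.281 in KMF. Upk3b had 25.2, 41.8 and 8.97 FPKM in ID8 and at most 2.25 in KMF. Krt7 had 1.88, 2.02 and 0.809 FPKM in ID8 and at most 0.287 in KMF. Of 13 leukocyte markers only Cd74 was listed, at no more than 1.59 FPKM in any library. The 4 listed fibroblast markers of 8 were all lower in KMF, with sums of 77.3 to 107 FPKM in ID8 and 13.5 to 25.9 in KMF. Of 7 endothelial markers 2 were listed, with sums of at most 0.174 FPKM. The part of these markers in the results on Trp53 and Cdkn1a was not tested, and in such bulk RNA fewer cells of a type and less RNA per cell cannot be told apart.

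Trp53 transcripts were lower in KMF than in ID8 in each of the 9 pairs of libraries. In ID8, Trp53 had 49.4, 48.2 and 42.2 FPKM (fragments per kilobase of gene, scaled to the fragments on genes in the library, for replicates 1, 2 and 3), from 4772, 3810 and 3550 counts. In KMF it had 37.4, 29.3 and 33.1 FPKM, from 2889, 2217 and 3603 counts. As for 50.2% of the listed genes, all KMF libraries were below all ID8 libraries, and the highest KMF library, at passage 14, lay below the lowest ID8 library, at passage 35. Means were 46.6 ± 3.84 FPKM in ID8 and 33.3 ± 4.06 in KMF (each ± SD, n = 3). Values after ± are SD over 3 libraries for FPKM and SE for log2 fold changes. Trp53 had a log2 fold change (log2FC, KMF over ID8) of -0.45 ± 0.11 (SE), or 0.733-fold with a 95% interval of 0.614 to 0.876, and was called lower (edgeR adjusted p-value 0.0143). The exact permutation test of log2 FPKM over libraries (two-sided) gave p = 0.1, the smallest that 3 libraries against 3 allow. The call did not hold without ID8 replicate 1, KMF replicate 2 or KMF replicate 3, with log2FC values of -0.41, -0.34 and -0.42 and edgeR adjusted p-values of 0.0553, 0.0544 and 0.0571.

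Cdkn1a transcripts were abundant in both lines, and the libraries of the lines overlapped. In ID8, Cdkn1a had 111, 160 and 114 FPKM (replicates 1, 2 and 3), from 6276, 7384 and 5583 counts. In KMF it had 177, 169 and 155 FPKM, from 7979, 7460 and 9835 counts. ID8 replicate 2, at passage 24, stood apart from both other ID8 libraries and lay above KMF replicate 3, so that KMF was higher in 8 of 9 pairs, whereas 46.3% of the listed genes had all KMF libraries above all of ID8. The mean was 128 ± 27.4 FPKM for ID8 and 167 ± 11.2 for KMF (± SD, n = 3). The log2FC of 0.42 ± 0.15 (SE), or 1.33-fold with a 95% interval of 1.04 to 1.71, was not called (edgeR p-value 0.027, adjusted 0.0691). That interval is not adjusted for the number of genes tested. The exact permutation test of log2 FPKM (two-sided) gave p = 0.2. Without ID8 replicate 2 the log2FC was 0.62 ± 0.09 and was called (edgeR adjusted p-value 0.00265). It was also called when p-values were adjusted only over the fitted genes of the table (edgeR adjusted p-value 0.0277), an adjustment that leaves out the genes the authors tested and did not list. With replicate number as a block in edgeR, Cdkn1a was called too (log2FC 0.44, adjusted p-value 0.0418), but these numbers do not pair the cultures.

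**Figure D1:**
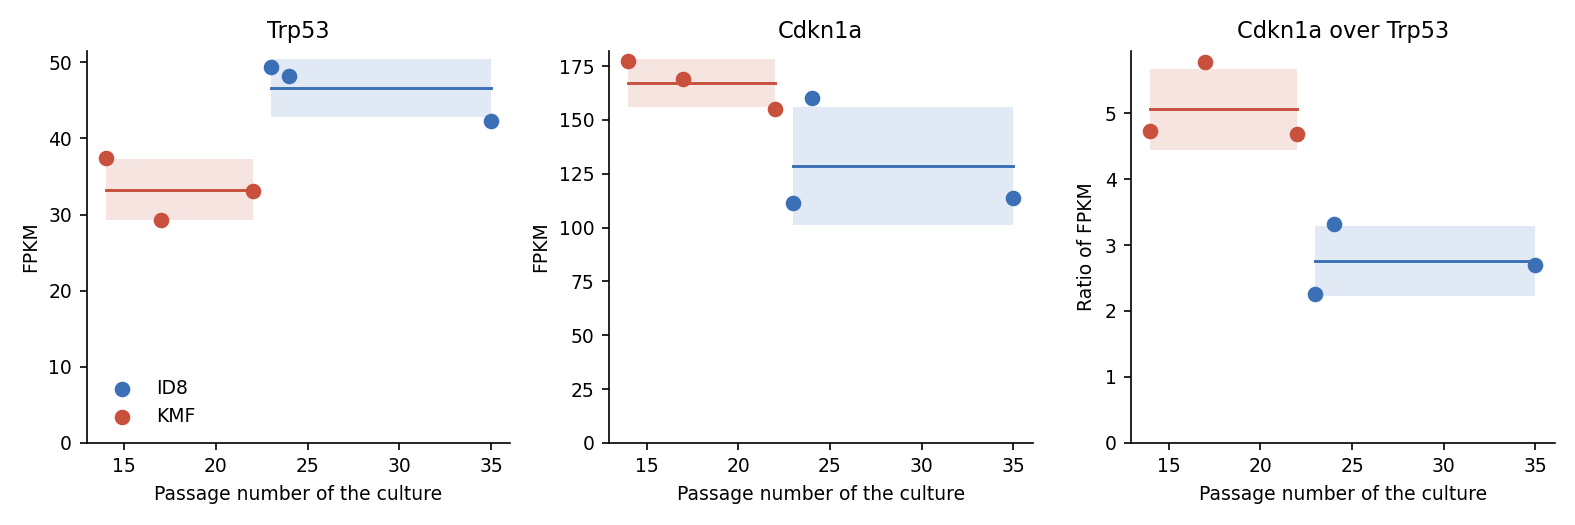
FPKM of Trp53 (left), FPKM of Cdkn1a (middle) and the ratio of their FPKM values (right) against the passage number of each culture, with 1 point per library, a line at the mean of each cell line and a band of ± 1 SD (n = 3). Trp53 and the ratio separate the lines, whereas for Cdkn1a ID8 replicate 2 at 160 FPKM lies among the KMF libraries.

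Because a ratio of counts within a library does not depend on how libraries are scaled, Cdkn1a was also set against Trp53. Cdkn1a had 2.26, 3.32 and 2.70 times the FPKM of Trp53 in ID8 replicates 1, 2 and 3. In KMF replicates 1, 2 and 3 it had 4.74, 5.77 and 4.68 times the FPKM of Trp53. The lowest KMF ratio was above the highest ID8 ratio. Both genes had been selected for a difference in these libraries and their log2FC values have opposite signs. The separation of the ratio is therefore not independent evidence. The log2 ratio of FPKM averaged 1.45 ± 0.28 in ID8 and 2.33 ± 0.17 in KMF (± SD, n = 3), a difference of 0.89 or 1.85-fold (exact permutation test, two-sided, p = 0.1, the smallest possible). Leaving out each library in turn gave differences between 0.75 and 1.03.

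The spread between cultures of a line is given next, beside the counting error, which spread between separate cultures usually exceeds. The coefficient of variation of Trp53 was 8.24% in ID8 and 12.2% in KMF, where counting alone allows at most 1.68% and 2.12%. For Cdkn1a it was 21.4% in ID8 and 6.69% in KMF, against at most 1.34% and 1.16% from counting. Among 5890 listed genes with a mean of at least 1 FPKM and more than 3 counts in each library, 84.1% had a smaller SD of log2 FPKM in ID8 than Cdkn1a and 35.9% had a smaller one in KMF. For Trp53 these shares were 47.1% in ID8 and 65.5% in KMF. Cdkn1a thus varied more than most listed genes in ID8 and less than most in KMF, a contrast that was not tested.

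Values by passage differed between the genes. Trp53 was lowest in the oldest culture of ID8, at passage 35, and in the middle culture of KMF, at passage 17. Cdkn1a was highest in the middle culture of ID8, at passage 24, and in the youngest of KMF, at passage 14. The cultures closest in passage across the lines were KMF replicate 3 at passage 22 and ID8 replicate 1 at passage 23. Between these libraries, KMF had 0.67 times the Trp53 FPKM and 1.39 times the Cdkn1a FPKM of ID8. Against ID8 replicate 2 at passage 24, KMF replicate 3 had 0.687 times the Trp53 FPKM and 0.968 times the Cdkn1a FPKM. With passage number as a covariate in edgeR, the log2FC of Trp53 was -0.64 ± 0.14 (adjusted p-value 0.0124) and that of Cdkn1a was 0.20 ± 0.20 (adjusted p-value 0.929). The fitted slope on passage was -0.02 ± 0.01 log2 units per passage for Trp53 and -0.02 ± 0.02 for Cdkn1a (SE, edgeR p-values 0.0914 and 0.18, unadjusted). The lines share no passage number, so this fit takes the slope from within the lines and assumes that it is the same in both.

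**Figure D2:**
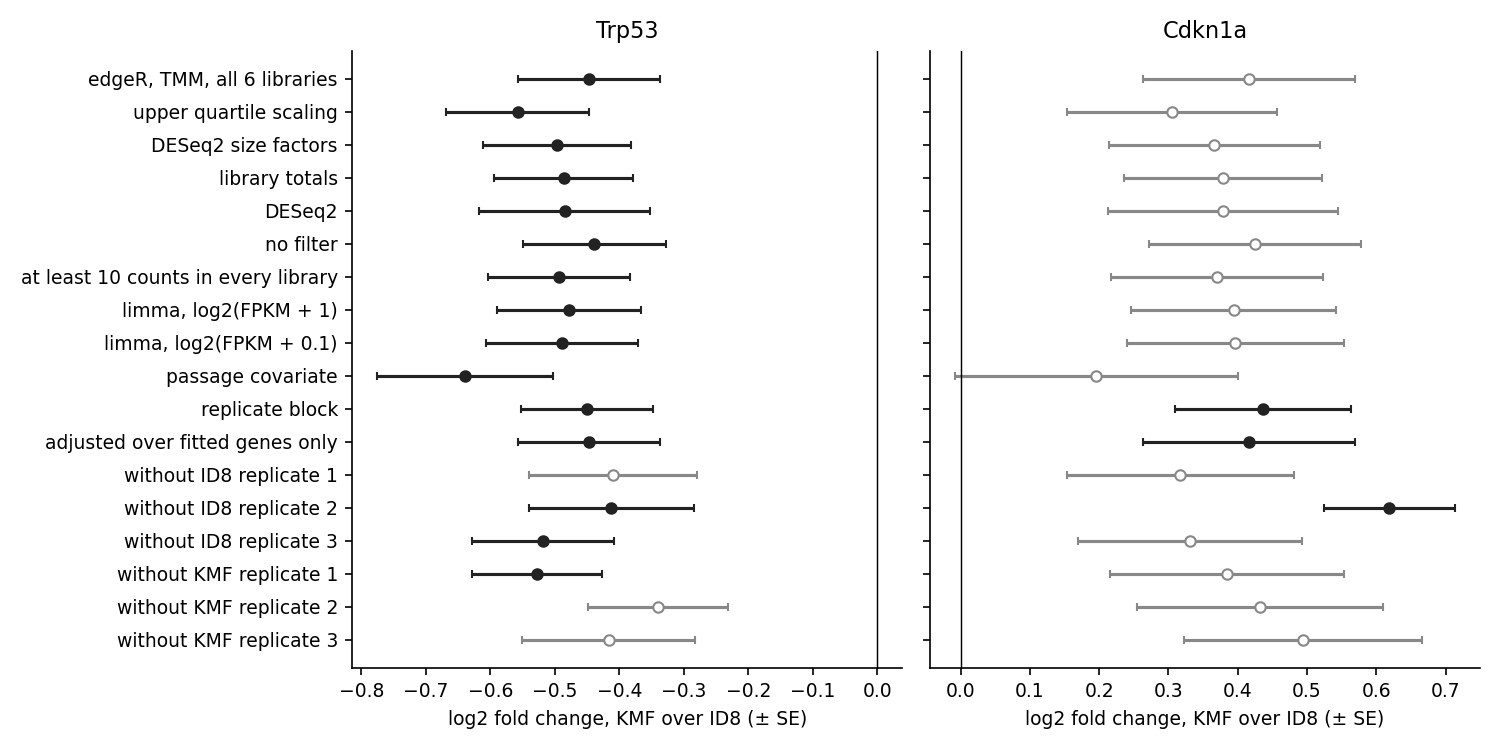
Log2FC of Trp53 (left) and Cdkn1a (right), KMF over ID8, with its SE, under the edgeR fit and each alternative. Filled points passed an adjusted p-value of 0.05. Trp53 lies between -0.64 and -0.34 and Cdkn1a between 0.20 and 0.62, with no change of sign.

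Levels can be compared between genes per length, as FPKM. Cdkn1a ranked between 190 and 296 of the 7320 listed genes in each library, and Trp53 between 823 and 1537. Cdkn1a had the highest FPKM of the 5 listed CDK inhibitors in both lines. Cdkn2c and Cdkn2d, the genes of the INK4 inhibitors p18 and p19, which bind CDK4 and CDK6, both rose. Cdkn2c averaged 25.8 ± 2.17 FPKM in ID8 against 55.0 ± 1.91 in KMF (± SD, n = 3), with a log2FC of 1.13 ± 0.08 (edgeR, adjusted p-value 5.58e-05). Cdkn2d had 10.9 ± 0.731 FPKM in ID8 and 39.4 ± 0.982 in KMF, a log2FC of 1.90 ± 0.10. Cdkn3, a phosphatase that acts on CDKs and is itself a gene of cycling cells, had 4.69 ± 1.18 FPKM in ID8 and 27.4 ± 1.94 in KMF. Cdkn1c, which encodes the relative of p21 named p57, fell from 34, 14 and 24 counts in ID8 to 1, 1 and 7 in KMF and was the one listed inhibitor called lower (log2FC -2.94 ± 0.60, edgeR adjusted p-value 0.00595). Cdkn1b, Cdkn2a and Cdkn2b were not analysed here. In the p53 family, Trp63 was close to the limit of detection, with 25, 28 and 29 counts in ID8 against 56, 51 and 48 in KMF. Trp63 was called higher with a log2FC of 0.98 ± 0.31 (edgeR adjusted p-value 0.0414), a call lost in 10 alternatives, and Trp73 was not analysed here.

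The genes that act on p53 were counted next. Of 35 regulators 18 were in the table and fitted, 11 called higher and 7 lower, and their median log2FC was 0.35. The shares over all fitted genes were 45.4% higher and 47.5% lower. The median over all fitted genes depended on the filter, at -0.23 here and 0.20 with at least 10 counts in every library. The count of 7 lower was 4 without ID8 replicate 1, without KMF replicate 2 and with passage as a covariate. All 4 listed kinases that signal DNA damage to p53 were higher. Chek1 rose from 2.29 ± 0.419 to 5.72 ± 0.627 FPKM and Chek2 from 5.01 ± 0.256 to 11.6 ± 1.91 (± SD, n = 3), with log2FC values of 1.36 ± 0.17 and 1.24 ± 0.14 (edgeR, adjusted p-values 0.000565 and 0.000364). Atr and Atm had log2FC values of 0.63 ± 0.10 and 0.49 ± 0.13, and the call of Atm was lost in 4 alternatives. Chek1 and Chek2 are also genes of cycling cells. Usp7, a deubiquitinase of both p53 and Mdm2, rose by a log2FC of 0.45 ± 0.08. Mdm2 and Mdm4, the main negative regulators of p53, were not analysed here.

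Enzymes and binding proteins of p53 went both ways. The lysine methyltransferases Setd7, Setd8 and Smyd2 were called higher, with log2FC values of 0.78 ± 0.08, 0.57 ± 0.08 and 0.25 ± 0.07 (SE). The call of Smyd2 was lost in 7 alternatives. The acetyltransferase Kat5 and the deacetylase Sirt1 were called lower, with log2FC values of -0.56 ± 0.11 and -0.32 ± 0.11. The call of Sirt1 was lost in 9 alternatives, among them every fit with a library left out, and that of Kat5 in 1. The gene of iASPP, an inhibitor of p53 (Ppp1r13l), rose by a log2FC of 1.02 ± 0.14, while that of its activating relative ASPP1 (Ppp1r13b) fell, with -0.57 ± 0.10 (edgeR adjusted p-values 0.000977 and 0.00364). Daxx fell, with a log2FC of -0.68 ± 0.09. Twist1, a transcription factor that can inhibit p53, was counted 78, 71 and 35 times in ID8 and 0 times in each library of KMF, at least 20.01-fold lower against a floor of 3 counts per library. Gnl3 and Rpl5, a nucleolar and a ribosomal protein that bind Mdm2, had log2FC values of 0.46 ± 0.07 and 0.24 ± 0.07 and were called higher, but the call of Rpl5 was lost in 10 alternatives.

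Genes known as targets of p53 did not share a direction. Of 58 targets other than Cdkn1a, 35 were in the table and fitted, 16 called higher, 15 lower and 4 not called, with a median log2FC of 0.27. These shares lie near the background of the table in both directions (45.4% higher and 47.5% lower). The other 23 targets, among them all 3 that feed back on p53, are absent from the table. For cell cycle arrest, Gadd45a had 61.1, 50.4 and 51.6 FPKM in ID8 replicates 1, 2 and 3 and 8.01, 7.68 and 5.17 in KMF. The lines were far apart for this gene, which responds to stress and DNA damage, with a log2FC of -2.93 ± 0.18 (edgeR, adjusted p-value 2.95e-05). Rprm was near the limit of detection, with 31, 15 and 23 counts in ID8 and 1, 3 and 0 in KMF. Gtse1, which restrains p53 in the G2 phase and is a gene of cycling cells, rose by 1.45 ± 0.21 and the kinase gene Plk2 by 0.43 ± 0.08 (log2FC ± SE), the latter call lost in 1 alternative. Ccng1, a cyclin gene that responds to p53 in many tissues, was lower in all KMF libraries but not called, with 103 ± 14.3 FPKM in ID8 and 78.6 ± 8.80 in KMF (edgeR adjusted p-value 0.0577), and it was called in 8 alternatives.

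Of 6 listed apoptosis targets 4 were higher and 1 lower. Pmaip1, the gene of the BH3-only protein Noxa, rose from 5.50 ± 1.62 to 15.2 ± 3.94 FPKM (± SD, n = 3), a log2FC of 1.50 ± 0.27 (edgeR adjusted p-value 0.0033). Perp, a membrane protein of desmosomes and apoptosis, rose by 0.79 ± 0.12, and Pidd1 by 0.59 ± 0.17 (log2FC ± SE). Bax, the pore-forming effector of mitochondrial apoptosis, had a log2FC of 0.27 ± 0.07, and its call was lost in 7 alternatives. Siva1 was called lower, with a log2FC of -0.43 ± 0.12, and Ei24 was not called. The calls of Siva1 and Pidd1 were each lost in 6 alternatives.

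Targets in DNA repair and metabolism went both ways. Xpc, which recognizes damage in nucleotide excision repair, and Rrm2b, a subunit of ribonucleotide reductase, fell with log2FC values of -0.62 ± 0.11 and -0.58 ± 0.08 (SE). Ercc5, an excision repair nuclease, had a log2FC of -0.27 ± 0.09, and its call was lost in 8 alternatives. Polh, the polymerase that bypasses lesions in DNA, rose by 1.27 ± 0.16 and Fancc by 0.79 ± 0.16 (log2FC ± SE, adjusted edgeR p-values 0.000531 and 0.00639). Of 11 listed metabolic targets 7 were lower and 4 higher. Sesn1, a stress-induced inhibitor of growth signalling, fell from 27.9 ± 2.89 to 10.3 ± 0.519 FPKM (± SD, n = 3), a log2FC of -1.40 ± 0.09 (edgeR adjusted p-value 3.47e-05). Cpt1c and Dram1, genes of lipid metabolism and of autophagy, had log2FC values of -2.60 ± 0.57 and -1.84 ± 0.39 from means of at most 1.83 FPKM. Gls2, a glutaminase gene, rose from 0.254 ± 0.0857 to 1.15 ± 0.219 FPKM. Ak1, an adenylate kinase, rose by 1.16 ± 0.11 and Gpx1, a peroxidase that removes hydrogen peroxide, by 0.67 ± 0.08 (log2FC ± SE).

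Of the remaining listed targets 4 were higher and 2 lower. Ptp4a3, a phosphatase gene, rose from 1.31 ± 0.582 to 7.68 ± 1.26 FPKM (± SD, n = 3), a log2FC of 2.59 ± 0.31. Phlda3, an inhibitor of Akt, rose from 117 ± 12.3 to 187 ± 17.3 FPKM, and Cd82, a tetraspanin, from 91.9 ± 11.3 to 140 ± 1.41 FPKM. Thbs1, the matrix protein thrombospondin 1, fell from 11.2 ± 0.698 to 1.50 ± 0.483 FPKM, a log2FC of -2.87 ± 0.21 (edgeR, adjusted p-value 5.20e-05). Dcxr fell with a log2FC of -0.96 ± 0.13. Promoter windows were available for 28 of the 35 listed targets, and the p53 response element was found in 1, against 26 of 5358 listed genes (0.485%). It was that of Gtse1, whose element is shown for comparison with that of Cdkn1a, with both decamers in capitals.
Gtse1, chr15:85859945-85859964, plus strand: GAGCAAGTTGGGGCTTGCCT
This element has 1 mismatch and spans the transcription start. Elements further from the start or within introns lie outside these windows.

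**Figure D3:**
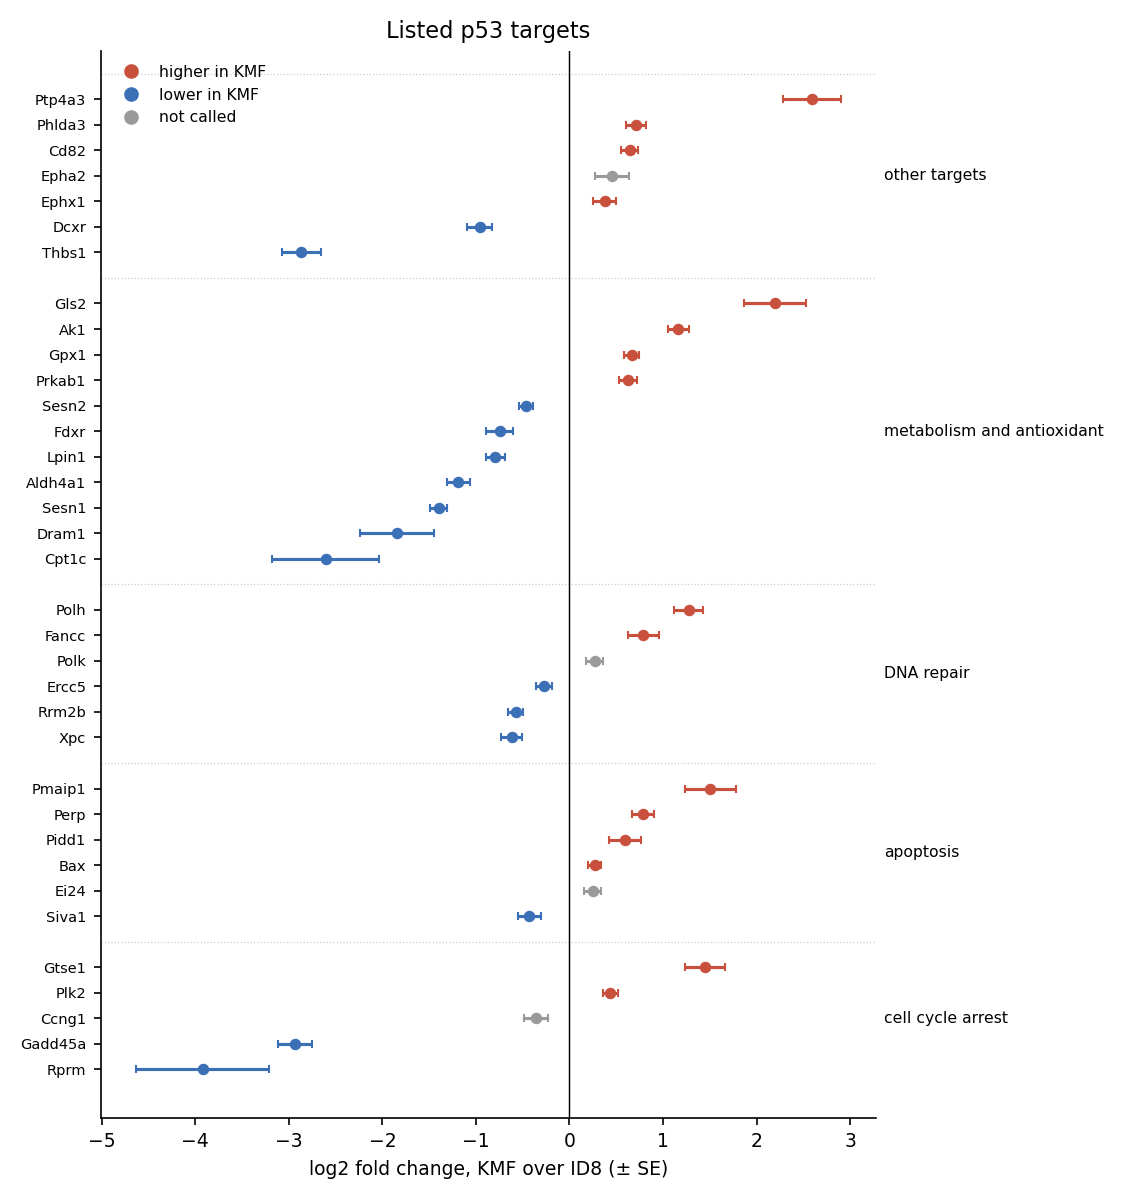
Log2FC (KMF over ID8, ± SE) of the 35 listed p53 targets by role, with colors for called higher, called lower and not called. Each role holds genes on both sides of 0, from Rprm and Gadd45a on the left to Ptp4a3 and Gls2 on the right. The fitted value of Rprm rests on 3 counts or fewer in each KMF library.

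The partners that p21 binds were mostly higher in KMF. Of 12 kinases, cyclins and clamp genes 10 were in the table, 9 called higher and 1 lower, with a median log2FC of 1.55. Of all fitted genes 45.4% were called higher and 47.5% lower. This list too was chosen with earlier results of these data known. Within ID8, replicate 3 at passage 35 was the lowest library for 9 of the 10 genes, all but Ccne2, and all 10 stayed called without it. Ccna2, the cyclin of S and G2 phase, rose from 9.83 ± 2.40 to 65.3 ± 10.4 FPKM and Ccnb1, the mitotic cyclin, from 14.1 ± 4.27 to 65.95 ± 8.67 FPKM (± SD, n = 3). Ccne2, a cyclin of entry into S phase, rose by a log2FC of 2.43 ± 0.12, and Ccne1 had 0.85 ± 0.27, a call lost in 7 alternatives. Ccnd1 rose by 2.08 ± 0.17 while Ccnd2 fell, with -0.47 ± 0.12 (log2FC ± SE, adjusted edgeR p-values 7.35e-05 and 0.0157). Of the kinases, Cdk1, Cdk2 and Cdk4 had log2FC values of 1.75 ± 0.16, 1.03 ± 0.10 and 0.33 ± 0.08. The calls of Cdk4 and Ccnd2 were lost in 4 and 2 alternatives. Pcna rose from 95.8 ± 8.05 to 237 ± 21.4 FPKM. Each Cdk1, Cdk2 and Ccna2 library of KMF thus lay above all of ID8, while the FPKM of Cdkn1a overlapped between the lines.

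Genes known to control Cdkn1a transcription or p21 degradation were also counted. Of 30 such genes 16 were listed, 8 called higher, 6 lower and 2 not called. Over all fitted genes 45.4% were called higher and 47.5% lower. With passage as a covariate 5 of the 16 were higher. Klf4, an activator of Cdkn1a that has been described to act with p53, had 36.3, 45.3 and 53.2 FPKM in ID8 replicates 1, 2 and 3 and 198, 208 and 196 in KMF. The lines were far apart, with a log2FC of 2.20 ± 0.14 (edgeR, adjusted p-value 2.86e-05). Brca1 rose by 1.63 ± 0.17 (log2FC ± SE). Vdr, Stat3 and Foxo3 fell, with log2FC values of -1.16 ± 0.24, -0.45 ± 0.10 and -0.35 ± 0.08. Among repressors, Myc had 26.2, 41.1 and 29.9 FPKM in ID8 and 56.9, 47.9 and 57.3 in KMF. The lines did not overlap for Myc, which was called higher with a log2FC of 0.78 ± 0.17 (edgeR adjusted p-value 0.00848), and ID8 replicate 2 was the highest ID8 library for Myc and for Cdkn1a alike. The deacetylase Hdac2 was called lower, with -0.34 ± 0.09, a call lost in 4 alternatives. The calls of Myc, Stat3 and Skp2 were each lost in 1 alternative, with passage as a covariate. Of the ligase components that degrade p21, Cdc20, Dtl, Cks1b and Skp2 rose, with log2FC values of 2.07 ± 0.21, 1.70 ± 0.16, 1.39 ± 0.13 and 0.68 ± 0.15. Cul1 and Ddb1 fell, with -0.31 ± 0.06 and -0.27 ± 0.09, the latter lost in 6 alternatives.

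**Figure D4:**
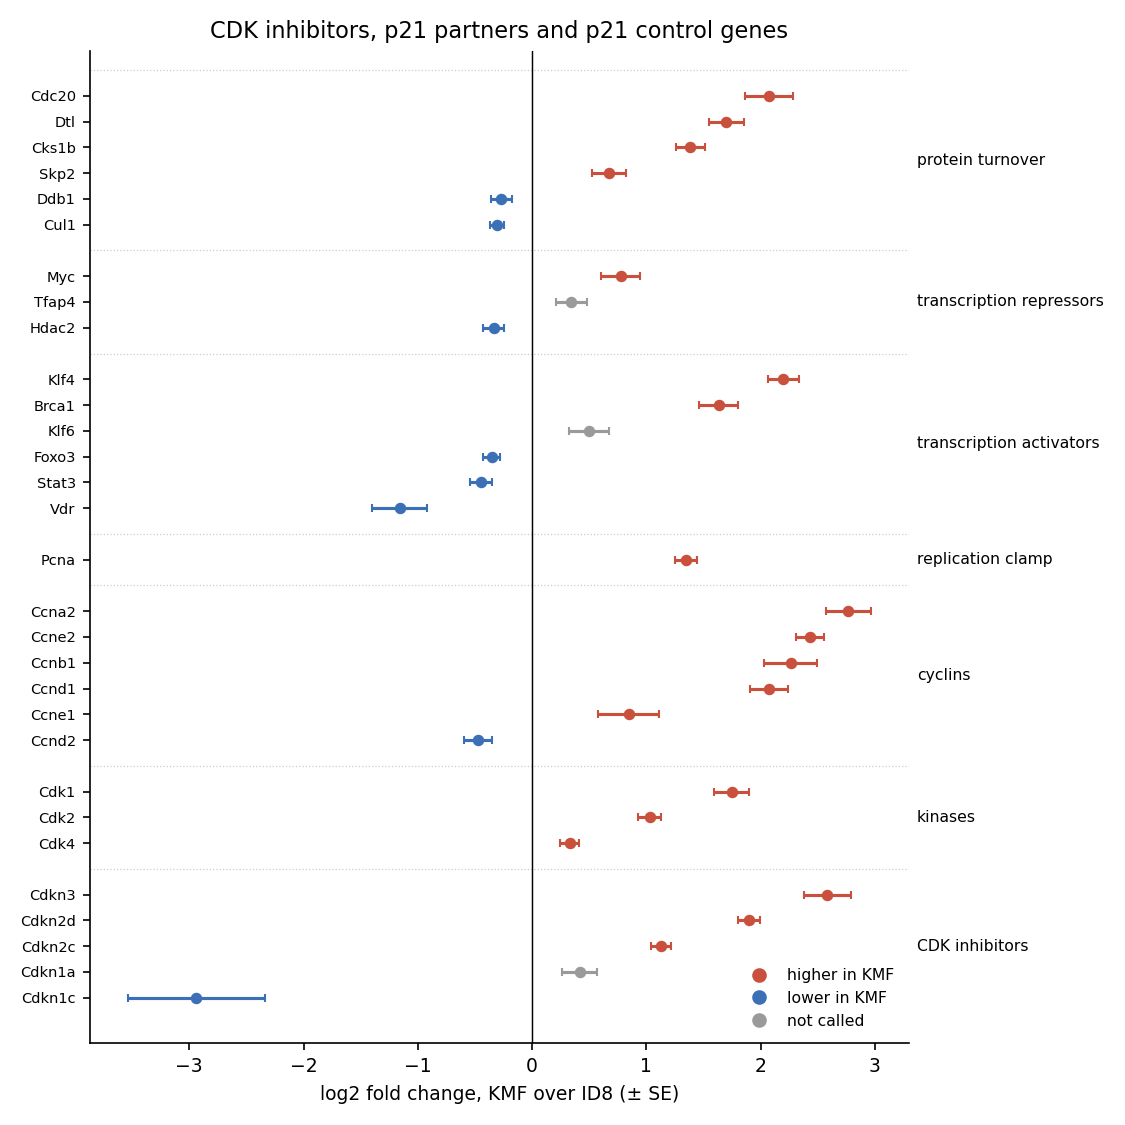
Log2FC (KMF over ID8, ± SE) of listed CDK inhibitors, p21 partners and all but 1 of the listed genes that control Cdkn1a transcription or p21 turnover. Cdkn1a, at 0.42 and not called, lies below Cdkn2c, Cdkn2d and Cdkn3 and below most cyclins and kinases.

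The genes next to each locus were described because genes that lie together can share a change in DNA copy number, which RNA does not measure. The study mapped copy number in KMF against ID8 by exome sequencing, and those values were not used here. Around Trp53, 29 other listed genes lay within 500 kb, of which 24 (82.8%) were called lower and 3 higher. Within 5000 kb 70.1% of 77 were lower, and on the whole of chromosome 11 66.1% of 637 listed genes were lower. Their median log2FC was -0.69 within 500 kb and -0.48 on the chromosome, so Trp53 at -0.45 was not among the genes with the larger decreases there. The nearest listed gene after Trp53 is Atp1b2, a subunit of the sodium pump (chromosome 11, 69599736 to 69605942). Atp1b2 had 29.7, 26.3 and 34.7 FPKM in ID8 and 0.407, 0.208 and 0.305 in KMF, a log2FC of -6.58 ± 0.21 (edgeR, adjusted p-value 3.09e-06). The next, Shbg (69614804 to 69617905), had 130, 72 and 115 counts in ID8 and 0 in all KMF libraries, at least 34.2-fold lower against a floor of 3 counts per library. Sat2 (69622024 to 69623870), a polyamine acetyltransferase gene, fell from 11.9 ± 1.46 to 2.11 ± 0.34 FPKM (± SD, n = 3). Before Trp53, the nearest listed gene, Dnah2, was below 0.07 FPKM in all libraries. The histone demethylase gene Kdm6b, the next before it, fell by 0.61 ± 0.09 (log2FC ± SE). Wrap53 was not analysed here.

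Within 500 kb of Cdkn1a 12 other genes were listed, 5 called higher, 5 lower, 1 not called and 1 not fitted, with a median log2FC of 0.28. Within 1000 kb 5 of 16 were higher and 8 lower (median -0.57), within 5000 kb 35 of 93 were higher and 50 lower (median -0.43), and on chromosome 17 128 of 295 were higher and 134 lower (median 0.20). Before Cdkn1a, the splicing factor gene Srsf3 (chromosome 17, 29032673 to 29043366) was called higher, from 55.9 ± 5.20 FPKM in ID8 up to 75.2 ± 2.54 in KMF, and the kinase gene Stk38 rose by a log2FC of 0.75 ± 0.13. The call of Srsf3 was lost in 1 alternative. Brpf3, further before these, fell, with a log2FC of -0.88 ± 0.14. Trp53cor1, the noncoding RNA gene known as lincRNA-p21, which lies 11800 bases before Cdkn1a, was not analysed here. After Cdkn1a, Rab44 (29135056 to 29148980) had 0, 2 and 0 counts in ID8 and 57, 54 and 87 in KMF. Gm16194, the nearest listed gene after Cdkn1a, had at most 7 counts in any library and was not fitted.

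**Figure D5:**
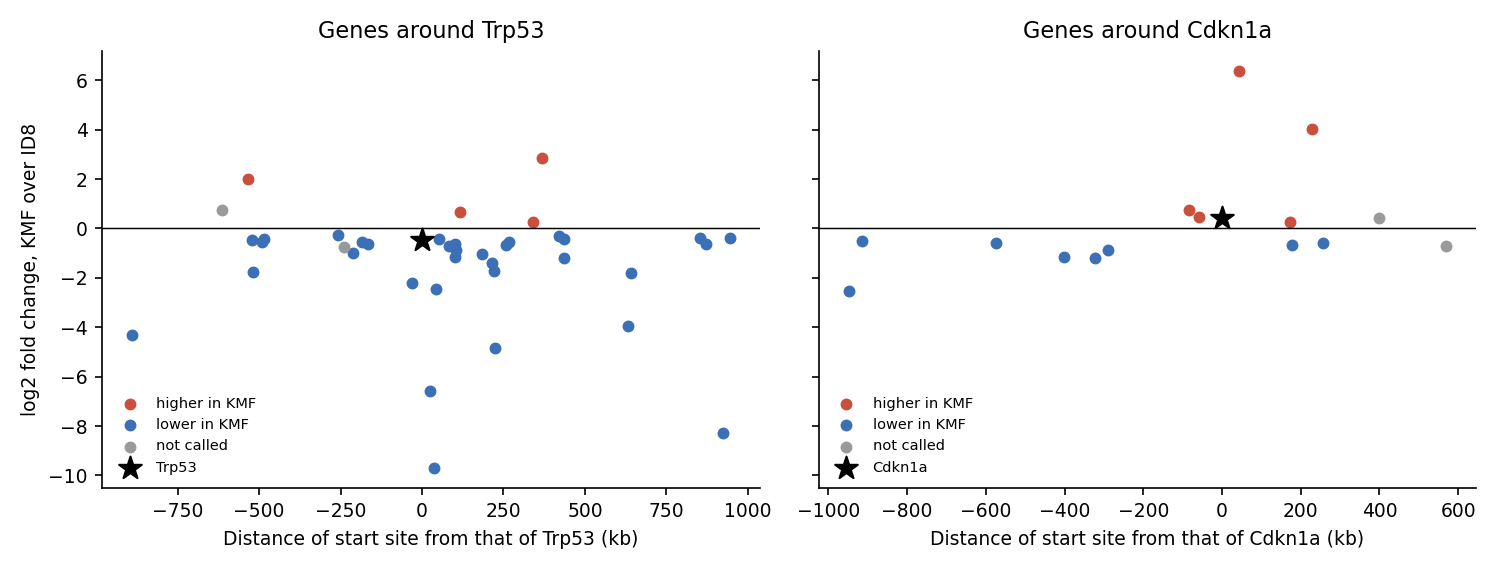
Log2FC (KMF over ID8) of fitted listed genes within 1000 kb of Trp53 (left) and Cdkn1a (right), against the distance of their start sites, with the gene itself as a star. Around Trp53 most genes lie below 0, down to Shbg, whose fitted value rests on 0 counts in KMF, whereas both directions occur around Cdkn1a.

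Finally, listed genes whose profile over the 6 libraries was most like that of each gene were sought, by the root mean square difference of log2 FPKM after centring each gene on its mean, over 5890 listed genes. For Trp53 they were Il1r1, Frmd4b, Arhgap23, B4galt4 and Wt1, with differences of 0.027 to 0.053 log2 units. Il1r1, the receptor of interleukin 1, had 7.77, 7.77 and 6.65 FPKM in ID8 and 6.15, 4.79 and 5.21 in KMF. Wt1, a transcription factor that marks ovarian surface epithelium, had 118, 112 and 94.8 FPKM in ID8 and 90.0, 63.6 and 78.2 in KMF. The calls of Il1r1, B4galt4 and Wt1 were lost in 4, 6 and 5 alternatives. For Cdkn1a the nearest were Ywhah, Dusp18, Ugdh, Nav3 and Lrrc8b, with larger differences of 0.081 to 0.098 log2 units. Ywhah, which encodes a 14-3-3 protein, had 95.1, 116 and 89.0 FPKM in ID8 and 150.2, 136 and 128 in KMF. The calls of Ywhah, Dusp18 and Ugdh were lost in 2, 4 and 1 alternatives, and Nav3 and Lrrc8b, which were not called, were called in 6 and 2 alternatives. These genes were picked for this likeness, so shared features of their profiles are no further result. Arhgap23 lies on chromosome 11 with Trp53, and none of the 5 nearest to Cdkn1a lies on chromosome 17.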

How the data were processed

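RNA of 6 tumorsphere cultures was examined. Per the labels and the study's methods, poly-A RNA was made into libraries with the NEBNext Ultra kit and sequenced as paired ends. The submitters' processing notes name CASAVA 1.8, STAR 2.5, DESeq2 and mm10, whereas the methods name TopHat2. The counting tool, the annotation release and the use of strand are not given in the sources used here. The deposited table holds raw read counts, FPKM computed by the authors, gene lengths in bases, and the authors' own fold changes and p-values. Of the authors' comparison, the deposited p-value and its adjusted value served only to recover how many genes had been adjusted together (17359), and its fold changes were not used.

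Library totals were recovered from counts, FPKM and length. The main test was edgeR 4.0.16 (R 4.3.3) by quasi-likelihood, two-sided, on the counts of all listed genes, with TMM scaling, filterByExpr and no covariate. Scaling and spread were thus estimated only from genes already selected for a difference. How this affects intervals and p-values was not tested. P-values were adjusted by Benjamini-Hochberg over the 17359 genes, those outside the table ranked last, and genes under 0.05 are termed called. Alternatives used DESeq2 1.42.0, limma 3.58.1 on log2 of FPKM plus 1 or 0.1, other scalings and filters, passage as a covariate, a replicate block and each library left out. On simulated data of 7320 genes with 200 changed by 1 log2 unit, the edgeR test called 76% of these and 3 others. The simulation differs from these data, where 92.9% of fitted genes were called and Trp53 and Cdkn1a changed by less than 1 log2 unit. Scaling, power and false calls in that setting were not tested. Libraries of a line differed by more than sampling noise, with a chi-square of at least 19.3 for each degree of freedom.

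The genes and lists were chosen with earlier results of these data known. By rule the text names Trp53 and Cdkn1a, the listed members of the p53 family, CDK inhibitor, p21 partner and DREAM complex lists, Mdm2 and Mdm4, up to 3 called genes with the largest change in each direction and role of the other lists, the nearest listed genes and the 5 most alike in profile. Atm, Bax, Ei24, Ccng1, Skp2, Shbg, Sat2, Kdm6b, Stk38, Rab44, Brpf3, Cdh1, Krt7, Upk3b, Aldh1a2, Msln, Gpm6a, Cd74 and Mcm2 were added after their values were seen. A called gene among those that control Cdkn1a is not reported here by name, but stays in the counts. Counting errors and floors cover counting error only.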

Additional observations from a re-analysis of the deposited data

How the results depend on the processing

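Neither gene changed direction in its 17 alternatives. Nor did any of 145 other fitted genes of the lists and loci in the alternatives that gave a value, which for low genes leave out the filter of 10 counts, limma or both. Of 2436 such values, 169 from 36 genes lost their call and 29 from 8 genes gained it. The log2 fold change of Trp53 lay between -0.53 and -0.34 with a library left out, where adjusted p-values reached 0.0571, and it stayed called in the other 11 alternatives. That of Cdkn1a lay between 0.32 and 0.62 with a library left out, with adjusted p-values from 0.00265 to 0.929 over all alternatives. It was called at 0.42 when adjusted over the fitted genes only and at 0.44 with a replicate block (edgeR adjusted p-value 0.0418). The replicate numbers do not pair the cultures: correlations of deviations between same-numbered libraries were 0.077, -0.13 and 0.087, and not every library correlated best with its own number. The block gave 5720 calls against 6470, and with it Trp53 stayed at -0.45. With passage as a covariate 4224 genes were called, 4 p53 regulators were lower against 7 and 5 p21 control genes were higher against 8. Without each library in turn, 4 to 5 p53 regulators were lower and 8 to 9 p21 control genes higher. The cause of these shifts was not tested. Upper quartile scaling moved the median of log2 fold changes over all genes by -0.11, to which its Trp53 value of -0.56 and Cdkn1a value of 0.31 are relative. The filter of 10 counts and limma gave medians of 0.20 to 0.22 over fewer genes. Counts of Trp53 and Cdkn1a exceeded 2000 in each library, and whether depth limits the calls was not tested.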

Other observations

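Downstream of p21, the DREAM complex represses cell cycle genes when p21 keeps CDKs inactive. Of its 11 subunit genes 7 were listed, 5 called higher and 2 lower, against 45.4% and 47.5% of all fitted genes. The pocket protein genes differed in direction, since Rbl1 (p107) rose from 5.44 ± 0.681 to 15.9 ± 1.92 FPKM and Rbl2 (p130) fell from 16.2 ± 1.61 to 9.57 ± 0.344 FPKM (± SD, n = 3). Their log2 fold changes were 1.59 ± 0.13 and -0.72 ± 0.09 (SE, edgeR adjusted p-values 7.35e-05 and 0.000453). The dimerization partners Tfdp1 and Tfdp2 also differed, with log2 fold changes of 0.84 ± 0.09 and -0.30 ± 0.08, the latter call lost in 3 alternatives. E2f5, Lin9 and Lin54 rose by 0.64 ± 0.11, 1.02 ± 0.10 and 1.13 ± 0.13. All 24 genes of the DREAM target list were in the table and called higher, against 45.4% of all fitted genes, with a median log2 fold change of 2.04. The list was chosen with earlier results of these data known, so this count is not independent evidence. The part of p21 in it was not tested. Ccna2, Ccnb1 and Cdk1 are also among the p21 partners, so both counts share these 3 genes. ID8 replicate 3 was the lowest ID8 library for 23 of the 24, and 23 stayed called without it. Mcm2, at 0.64 ± 0.18, lost its call in 9 alternatives.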
